A study of Mus musculus with 4 samples.

Results

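Egr1, Egr2, Egr3, Nr4a1, Nr4a2, Nr4a3, Fos, Fosb, Junb and Dusp2 are genes that T cells switch on soon after their antigen receptor is engaged. They were taken by name from the deposited tables, and all 10 were found among the 28032 genes with an exon length. Their messenger RNA was counted in CD4+Foxp3+ regulatory T cells (Tregs), a CD4 lineage that keeps other immune cells in check, sorted by flow cytometry from C57BL/6 mice aged 8 weeks. The mice were wild type (WT) or lacked Csnk2b (genotype Csnk2b-/-), which encodes the beta subunit of the protein kinase CK2. Replicate 1 of each genotype came from the spleen and replicate 2 from the tracheal lymph nodes (tLN), which gives 4 libraries and 1 library for each combination of genotype and tissue. The cell type in which Csnk2b was deleted, and whether a library came from 1 animal or a pool, were not stated in the labels.

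Engagement of the T cell receptor raises calcium and activates the Ras and ERK kinases, which act on factors already present in the cell, so that early genes are transcribed before new protein is made. Most of their products are transcription factors that pass the signal on to slower genes, and their messenger RNAs are short-lived. In Tregs, which meet self-antigen continuously, EGR and NR4A genes are widely used as a readout of recent receptor signalling. EGR1, EGR2 and EGR3 are zinc finger factors, of which EGR2 and EGR3 are known to restrain T cell activation. NR4A1, NR4A2 and NR4A3 are orphan nuclear receptors that help maintain Foxp3 expression. FOS, FOSB and JUNB are subunits of the AP-1 dimer, which binds DNA together with NFAT. DUSP2 is a nuclear phosphatase that removes the activating phosphates from MAP kinases.

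The promoters of 8 members were searched for control elements that early genes are known for, and 5 are shown. They are RefSeq sequences of GRCm38.p6, each the 250 bases before a transcription start. Nr4a3, Fos, Nr4a1 and Egr2 are shown because their genotype ratios lay farthest apart in the spleen and the tLN, and Junb because its level was far lower in the tLN. Egr2 has 5 listed starts, and the window of the third is given. Capitals mark matches on either strand to the CRE core TGACGT, which CREB binds, to the AP-1-like element TGCGTCA, to the EGR site GCGNGGGCG, or to the CArG box, which serum response factor binds.
Egr2, chr10:67537619-67537868, plus strand: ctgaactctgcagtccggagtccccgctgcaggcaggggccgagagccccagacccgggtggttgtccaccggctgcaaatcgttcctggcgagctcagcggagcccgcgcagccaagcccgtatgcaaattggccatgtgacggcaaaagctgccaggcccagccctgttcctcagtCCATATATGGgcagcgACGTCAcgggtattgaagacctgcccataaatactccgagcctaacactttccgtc
Nr4a1, chr15:101266596-101266845, plus strand: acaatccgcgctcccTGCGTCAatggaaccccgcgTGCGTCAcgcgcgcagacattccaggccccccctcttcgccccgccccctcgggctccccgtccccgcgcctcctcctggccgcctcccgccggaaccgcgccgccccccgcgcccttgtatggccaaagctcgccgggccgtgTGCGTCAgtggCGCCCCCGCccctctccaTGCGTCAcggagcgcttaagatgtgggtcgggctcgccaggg
Nr4a3, chr4:48045055-48045304, plus strand: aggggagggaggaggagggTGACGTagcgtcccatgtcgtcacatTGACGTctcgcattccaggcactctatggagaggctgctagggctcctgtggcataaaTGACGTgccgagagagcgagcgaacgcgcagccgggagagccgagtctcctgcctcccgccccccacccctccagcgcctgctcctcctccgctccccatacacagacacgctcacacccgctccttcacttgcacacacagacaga
Fos, chr12:85473640-85473889, plus strand: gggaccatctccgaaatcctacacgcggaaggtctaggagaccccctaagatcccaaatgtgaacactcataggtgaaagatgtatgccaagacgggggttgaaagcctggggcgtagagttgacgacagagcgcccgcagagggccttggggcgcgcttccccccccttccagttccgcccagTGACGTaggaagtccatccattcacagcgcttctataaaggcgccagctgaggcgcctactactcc
Junb, chr8:84978749-84978998, minus strand: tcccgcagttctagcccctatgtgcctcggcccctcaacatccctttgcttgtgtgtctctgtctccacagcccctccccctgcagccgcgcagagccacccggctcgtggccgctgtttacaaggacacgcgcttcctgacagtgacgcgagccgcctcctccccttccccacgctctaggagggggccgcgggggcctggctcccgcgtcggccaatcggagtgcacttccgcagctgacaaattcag
Egr2 had a CArG box 72 to 63 bases and a CRE core 56 to 51 bases upstream of the start. Nr4a1 held the AP-1-like element 4 times and an EGR site 60 to 52 bases upstream, and Nr4a3 held 3 CRE cores. Fos had a CRE core 66 to 61 bases upstream, and Junb had none of the motifs in this window. Of 32851 mouse promoter windows of the same length, the CRE core was in 6.47%, the AP-1-like element in 1.75%, the EGR site in 4.7% and the CArG box in 1.47%. The AP-1 site TGANTCA (6.75% of windows) and the NR4A element AAAGGTCA (1.34%) were also searched and were in none of the windows matched for 8 members. Nr4a2, Dusp2 and Fosb, also matched, each had 1 EGR site, and Fosb had 1 AP-1-like element as well. No matches overlapped, and the motifs were chosen with the sequences in view.

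The members lie on 9 chromosomes (coordinates of mm9, the build named in the submitters' processing notes). Egr1 is at chr18:35019477-35024638, Egr2 at chr10:66998223-67004936 and Egr3 at chr14:70477252-70479964. Nr4a1 is at chr15:101097277-101105223, Nr4a2 at chr2:56959241-56976414 and Nr4a3 at chr4:48058025-48099319. Fos is at chr12:86814840-86818223, Fosb at chr7:19888070-19895394, Junb at chr8:87500811-87502617 and Dusp2 at chr2:127161895-127164112. Junb is listed with 1 exon, and the span of Egr1 overlaps another listed feature, Gm17507, so reads of that pair may be mixed. The other 9 members overlap no listed gene with an exon length.

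Total exon reads ranged from 4737814 to 6750695 per library, and 12157 to 15515 genes had a read, with the fewest in WT tLN Tregs. Csnk2b itself had 649 exon reads in the WT spleen library against 148 in the Csnk2b-deficient one, with tLN counts of 667 against 283. The Treg markers Cd4, Cd3e, Foxp3, Il2ra, Ctla4 and Ikzf2 all had reads in every library, with a summed level of 3509 to 5244 CPM (exon reads scaled to a common library size). Among them Foxp3 stood at 811 CPM in WT against 374 CPM in Csnk2b-deficient spleen libraries, and at 570 against 123 CPM in the tLN. The 6 of 7 myeloid markers found summed to 46.4 CPM in WT and 301 CPM in Csnk2b-deficient tLN Tregs, most of it Lyz2, and to 6.75 to 10.8 CPM in the spleen. The 6 B cell markers summed to 970 and 890 CPM in spleen libraries against 2067 and 2896 CPM in tLN libraries, most of it Ighm, and Cd79b stood at 13.8 and 15.0 CPM against 146 and 90.3 CPM. Pax5 was at 0 in all libraries. The 2 of 3 plasma cell markers found summed to 36.2 CPM in Csnk2b-deficient tLN Tregs and to at most 1.38 CPM elsewhere, dendritic cell markers to 3.17 to 23.9 CPM, CD8 T cell markers to 12.5 to 52.5 CPM, and NK cell markers to 1.22 to 7.02 CPM with Ncr1 and Klra8 at 0. The erythroid and platelet markers summed to 41.8 CPM in WT tLN Tregs and at most 3.95 CPM elsewhere.

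**Figure D1:**
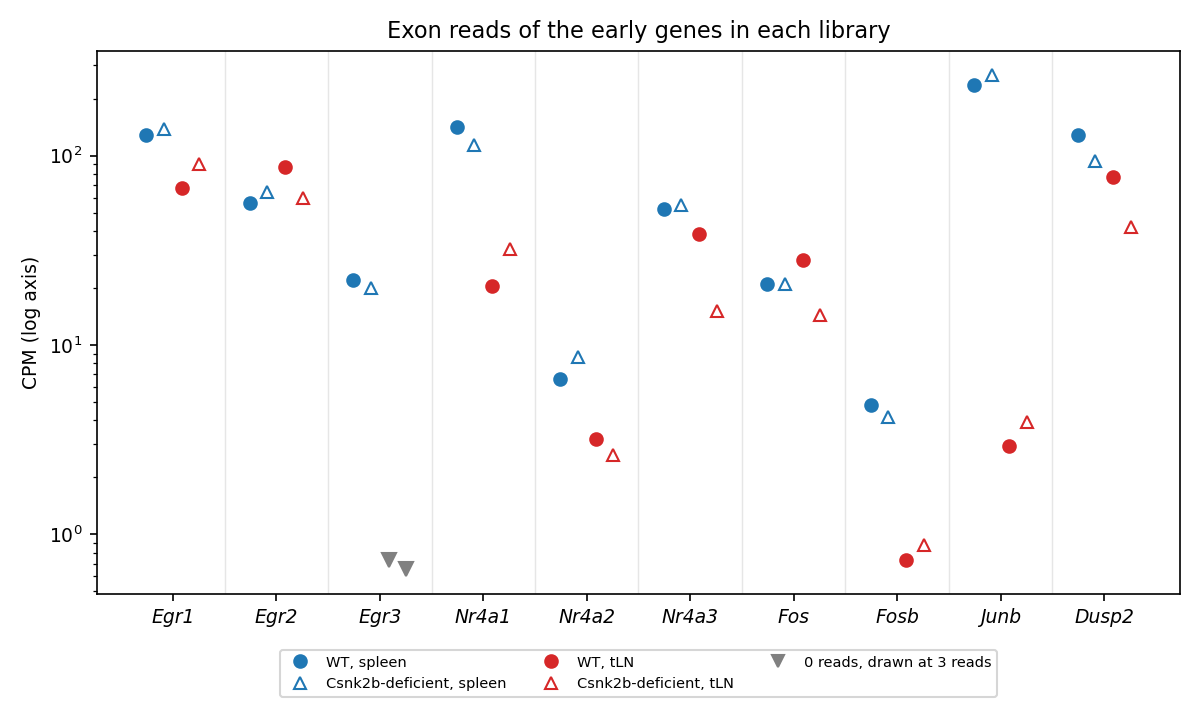
Level of each early gene in the 4 libraries, as exon reads in CPM on a log axis, with 1 symbol per library. Junb stood highest in the spleen (235 and 265 CPM) and at 2.93 and 3.95 CPM in the tLN, while the symbols of Egr2 and Fos from the 2 tissues are intermixed.

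Most of the early genes had lower levels in tLN than in spleen Tregs. In 8 of 10 members, all but Egr2 and Fos, both tLN libraries lay below both spleen libraries, as they did for 40.7% of the 11113 genes tested. Egr3 and Fosb, among these 8, passed the filter on low counts through the spleen libraries alone, so their presence in that count is no support. In 0 members were both tLN libraries above, which held for 35.9% of genes. Levels scaled to exon length and total gene reads (RPKM) put Junb first in WT spleen Tregs at 117, ahead of Dusp2 at 57.4, Nr4a1 at 51.6 and Egr1 at 25.8. Egr2 (14.9), Egr3 (13.5), Fos (8.02) and Nr4a3 (7.84) followed, and Nr4a2 (1.46) and Fosb (1.16) were lowest. Fos and Nr4a3 changed places in Csnk2b-deficient spleen Tregs, at 8.09 and 8.23 RPKM, as neighbours whose counting errors overlap. In WT tLN Tregs the order was Dusp2 (25.8 RPKM), Egr2 (17.2), Egr1 (10.1), Fos (8.00), Nr4a1 (5.56), Nr4a3 (4.32), Junb (1.09), Nr4a2 (0.524) and Fosb (0.131), with Egr3 at 0. By this measure Junb stood above 98.3% and 98.5% of the genes with a read in WT and Csnk2b-deficient spleen Tregs, and above 24.2% and 39.0% in the tLN.

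Of the EGR factors, Egr1 had 1014 exon reads (129 CPM) in the WT spleen library against 803 (139 CPM) in the Csnk2b-deficient one, with tLN counts of 276 (67.5 CPM) against 413 (90.5 CPM). In the same order, Egr2 had 444 reads (56.3 CPM) against 371 (64.2 CPM), with tLN counts of 358 (87.5 CPM) against 271 (59.4 CPM). Egr3 had spleen counts of 173 (21.9 CPM) against 115 (19.9 CPM) but 0 reads in both tLN libraries. Egr1 was higher in the spleen, Egr2 was highest in WT tLN Tregs with overlapping tissues, and Egr3 was detected in the spleen only. A count of 0 allows up to 3 reads per library, which is 0.733 CPM in WT and 0.658 CPM in Csnk2b-deficient tLN Tregs. Against that floor Egr3 was at least 29.9-fold lower in the tLN in WT and at least 30.2-fold lower in Csnk2b-deficient Tregs. Of Egr1 reads 87.0% to 96.9% were uniquely placed, and all reads of the other members were.

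Of the NR4A receptors, Nr4a1 had 1118 reads (142 CPM) in the WT spleen library against 660 (114 CPM) in the Csnk2b-deficient one, with tLN counts of 84 (20.5 CPM) against 146 (32.0 CPM). Nr4a3 had spleen counts of 411 (52.1 CPM) against 316 (54.7 CPM), with tLN counts of 158 (38.6 CPM) against 69 (15.1 CPM). Nr4a2 was the least abundant, with spleen counts of 52 (6.60 CPM) against 50 (8.65 CPM) and tLN counts of 13 (3.18 CPM) against 12 (2.63 CPM). All 3 receptors had their lower libraries in the tLN, and the tissues did not overlap. Nr4a1 was farthest apart, and within the tLN it was higher in the Csnk2b-deficient library while Nr4a3 was higher in WT.

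Of the AP-1 subunits, Junb had 1849 reads (235 CPM) in the WT spleen library against 1531 (265 CPM) in the Csnk2b-deficient one, with tLN counts of 12 (2.93 CPM) against 18 (3.95 CPM). Fos had spleen counts of 165 (20.9 CPM) against 122 (21.1 CPM), with tLN counts of 115 (28.1 CPM) against 66 (14.5 CPM). Fosb was near the limit of detection, with spleen counts of 38 (4.82 CPM) against 24 (4.15 CPM) and tLN counts of 3 (0.733 CPM) against 4 (0.877 CPM). Junb and Fosb were thus low in both tLN libraries, while the Fos levels of the tLN lay on either side of those of the spleen. The phosphatase gene Dusp2 had 1007 reads (128 CPM) in the WT spleen library against 544 (94.1 CPM) in the Csnk2b-deficient one, with tLN counts of 316 (77.2 CPM) against 192 (42.1 CPM). It was lower in the Csnk2b-deficient library of each tissue.

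The tissue comparison asked how tLN Tregs differed from spleen Tregs across both genotypes. The protocols name different library kits, and taken in the order of listing, tissue and kit cannot be told apart in any of its values. Some genes of each of the EGR, NR4A and AP-1 families and Dusp2 fell in the tLN, but Egr2 and Fos did not (log2 fold changes of 0.26 and -0.05). Egr1 and Dusp2 turned direction relative to genes of like GC content (0.49 and 0.33). The lowest value was that of Junb, which was 80.0-fold lower in WT and 67.1-fold lower in Csnk2b-deficient Tregs. With edgeR's quasi-likelihood test on tissue and genotype and Benjamini-Hochberg adjustment over all genes, 6 of 10 members were lower and 0 higher at an adjusted p below 0.05, while 22.2% of all genes tested were lower and 23.3% higher (45.4% in either direction). The median log2 fold change was -1.25 for the members, with Egr3 at its bound, against -0.17 for all genes. Egr3 and Fosb passed the filter on low counts through the spleen libraries alone, so their presence in that count and median is no support. Junb fell by 6.17 ± 0.31 on the log2 scale (SE, n = 2 per tissue, edgeR adjusted p = 1.0e-06), and Nr4a1 fell by 2.30 ± 0.31 (adjusted p = 0.000142). Dusp2, Egr1 and Nr4a3 also passed the test as lower, with log2 fold changes of -0.94 ± 0.26 (edgeR adjusted p = 0.0119), -0.77 ± 0.24 (0.0212) and -1.12 ± 0.41 (0.0451). Egr3 was the sixth (adjusted p = 0.000202). Fosb, Nr4a2, Fos and Egr2 did not pass the test, with log2 fold changes of -2.44 ± 1.35, -1.38 ± 0.97, -0.05 ± 0.46 and 0.26 ± 0.29. The call of Nr4a3 was lost with median-of-ratios size factors (adjusted p = 0.0738), with DESeq2 (0.0732) and with uniquely placed reads (0.0633), and that of Egr3 with DESeq2 (0.0603). Summed B cell markers (970 and 890 CPM in spleen libraries against 2067 and 2896 CPM in tLN libraries) and myeloid markers (10.8 and 6.75 CPM against 46.4 and 301 CPM) differed between the tissues too, and their part in the result was not tested. These SEs do not rest on replicate libraries. The fit left 1 residual degree of freedom, which is how far the genotype ratio in the tLN departs from that in the spleen. It also drew on the spread of the other genes, with prior degrees of freedom of 10.1.

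**Figure D2:**
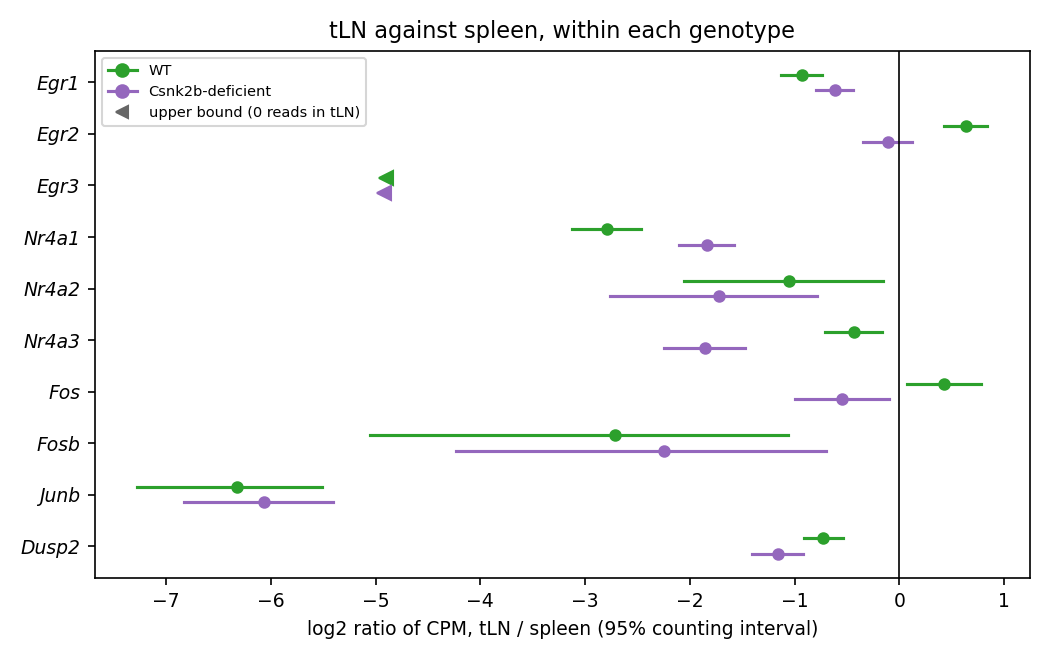
Log2 ratio of tLN to spleen CPM for each early gene, within WT and within Csnk2b-deficient Tregs, with 95% exact binomial intervals of the counts. Junb lies at -6.32 and -6.07, and Egr2 and Fos are the members whose WT value lies above 0 and whose Csnk2b-deficient value lies below it.

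Within a genotype each tissue has 1 library, so the ratios have no replicate check, and their intervals cover counting error only. At least 2-fold lower in the tLN were 5 of 10 members in WT, compared with 30.7% of genes tested. In Csnk2b-deficient Tregs the count was 7 of 10, compared with 27.6%. Both counts include Egr3 and Fosb, which passed the filter through the spleen libraries alone, so their presence there is no support. At least 2-fold higher were 0 members in either genotype, compared with 25.8% of genes in WT (56.5% in either direction) and 27.4% in Csnk2b-deficient Tregs (55% in either direction). In WT the log2 ratio of Nr4a1 was -2.79 (95% interval -3.13 to -2.47), and in Csnk2b-deficient Tregs it was -1.83 (-2.10 to -1.57). Nr4a3 had -0.43 (-0.71 to -0.16) in WT and -1.85 (-2.25 to -1.47) in Csnk2b-deficient Tregs. For Nr4a1 the tissue gap was thus wider in WT and for Nr4a3 in Csnk2b-deficient Tregs. Whether these gaps differ between the genotypes could not be tested, since no residual degrees of freedom are left.

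Base composition moved with the tissue difference. The labels' protocols give Trizol with the TruSeq RNA kit for samples 1 and 2, and an RNeasy micro kit with SMARTer cDNA synthesis and Nextera XT for samples 3 and 4. Taken in the order of listing, these are the spleen and the tLN libraries, so that tissue and library kit cannot be told apart. Across the 9428 tested genes with a matched GENCODE transcript, the median log2 fold change of tLN against spleen was 0.46 at a GC content of 35 to 40%, -0.19 at 50 to 55%, -1.27 at 55 to 60% and -3.08 at 60 to 65% (355 genes). Junb, with 62.6% GC, and Egr3, with 62.2%, had the most GC-rich transcripts of the members and the lowest values in the tLN. Egr2 (51.4% GC) and Fos (51.9%) had values near 0, but Nr4a2 (47.9%) and Nr4a3 (48.4%), the least GC-rich, were lower in both tLN libraries. In the 60 to 65% bin, 26 of 355 genes had a lower value than Junb. Relative to the median of their own bin, a comparison chosen after seeing the data, Junb stood at -3.09, Egr3 at -1.83 (from its bound), Nr4a2 at -1.48, Nr4a3 at -1.22, Fosb at -1.18 and Nr4a1 at -1.03. On that scale Egr1 and Dusp2 turned direction, at 0.49 and 0.33, and Egr2 and Fos stood at 0.46 and 0.14. Egr3 and Fosb passed the filter on low counts through the spleen libraries alone, so their low values here are no support. Only Egr3 was set at a bound, and other genes with 0 reads in the tLN kept their fitted values. The part of GC content in the tissue difference of single genes was not tested.

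**Figure D3:**
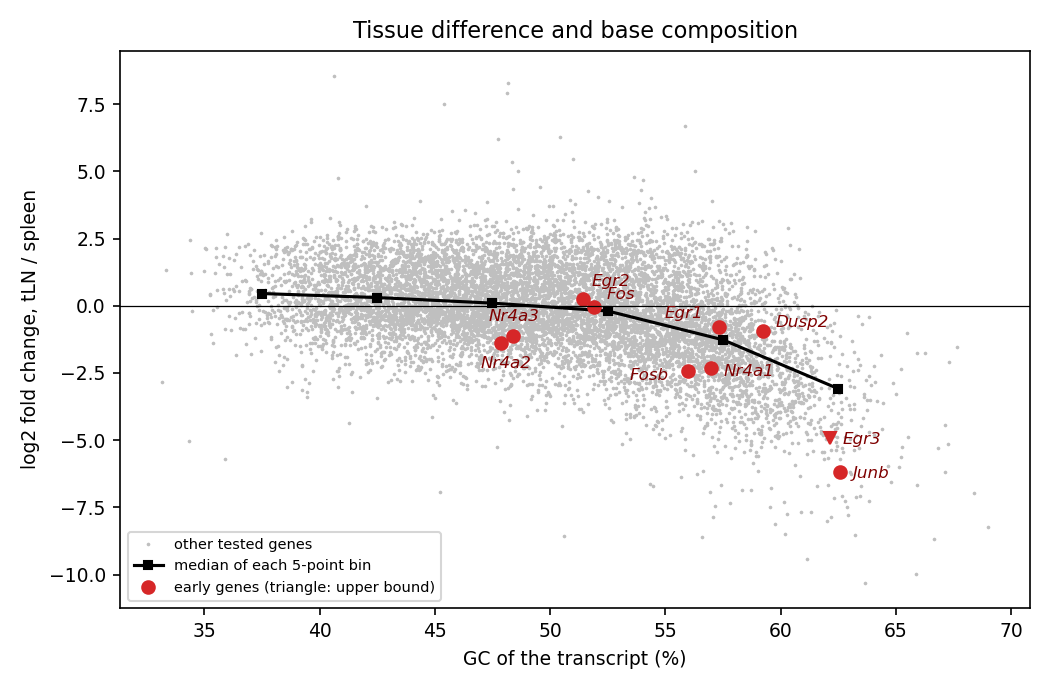
Log2 fold change of tLN against spleen (vertical axis) and GC content of the transcript in percent (horizontal axis) for the tested genes, with medians of bins of at least 20 genes as squares. Junb and Egr3 lie in the GC-rich bin whose median is -3.08, and Nr4a2 and Nr4a3 lie below the median of their bin, which is 0.10.

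The genotype comparison asked which transcripts depended on the CK2 beta subunit. None of the early genes passed the test. With edgeR, 0 of 10 members passed an adjusted p of 0.05 in either direction, while 0.126% of genes tested were higher and 0.018% lower with Csnk2b deficiency (0.144% together), and 1 member, Dusp2, had an unadjusted p below 0.05, as had 542 of the 11113 genes. DESeq2 and limma-voom called 0 members as well, with 0 and 1 at an unadjusted p below 0.05. Their median log2 fold change was -0.08, against 0.01 for all genes. Dusp2 had a log2 fold change of -0.65 ± 0.26 (SE, n = 2 per genotype, unadjusted p = 0.0286, edgeR adjusted p = 0.890), with -0.44 (95% interval -0.59 to -0.29) in the spleen and -0.88 (-1.14 to -0.61) in the tLN. It was the only member lower in both tissues, as 29.2% of all genes were, and Egr1 and Junb were higher in both, as 27.5% were. Egr1 had 0.26 ± 0.24 (adjusted p = 0.895) and Junb 0.24 ± 0.27 (adjusted p = 0.920). The other members ranged from -0.61 ± 0.41 for Nr4a3 to 0.12 ± 0.30 for Nr4a1, and the value of Nr4a1 was -0.10 with limma-voom and -0.15 without the tissue term. A value that misses the threshold does not show that the genotypes were alike: the SEs of Fosb and Nr4a2 were 1.37 and 0.97.

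**Figure D4:**
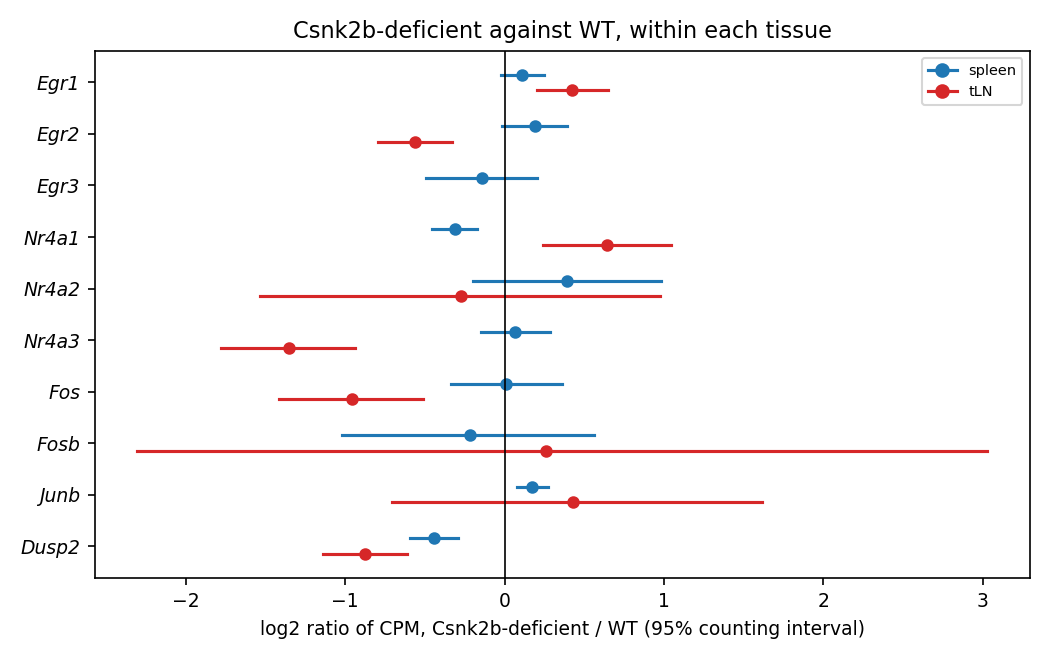
Log2 ratio of Csnk2b-deficient to WT CPM for each early gene within the spleen and within the tLN, with 95% exact binomial intervals of the counts (Egr3 had 0 reads in the tLN). The spleen values lie between -0.44 and 0.39, and the tLN values between -1.35 and 0.64.

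In the spleen the members, like most genes tested, differed less than 2-fold between the genotypes. The members' log2 ratios of Csnk2b-deficient to WT ran from -0.44 (Dusp2) to 0.39 (Nr4a2), with a median of 0.04. Among the members 0 of 10 changed at least 2-fold, compared with 5.07% of genes tested (2.94% higher and 2.12% lower). The counting interval lay off 0 for 3 of them, Dusp2, Nr4a1 (-0.31, -0.45 to -0.17) and Junb (0.18, 0.08 to 0.27). The share of all genes with such an interval was not counted. These intervals cover counting error only, while the libraries differed by a chi-square per degree of freedom of 7.93 in the spleen and 30.4 in the tLN. In the tLN the spread was wider for the members and for genes in general. There 1 of 9 members with reads, Nr4a3, differed at least 2-fold, compared with 26.4% of genes tested (15.6% higher and 10.8% lower). Nr4a3 had a log2 ratio of -1.35 (-1.78 to -0.94), Fos -0.96 (-1.42 to -0.51) and Egr2 -0.56 (-0.79 to -0.33), against 0.07, 0.01 and 0.19 in the spleen. Nr4a1 went the other way, with 0.64 (0.24 to 1.05) in the tLN. The tLN pair is also the one in which the myeloid markers stood at 46.4 and 301 CPM and the plasma cell markers at 0 and 36.2 CPM, while Foxp3 itself stood at 570 and 123 CPM. The part of other cells in these ratios was not tested. The median genotype ratio in the tLN lay between -0.05 and 0.07 in each GC bin of at least 20 genes. In sorted bulk samples, fewer cells with an active gene and less RNA per cell cannot be told apart.

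Other genes of the pathway were grouped in 7 lists, of which 0 genes were called for genotype. Their counts for tissue stand against the 23.3% of all genes tested that rose in the tLN and the 22.2% that fell. Of 4 tested AP-1 and bZIP genes outside the members, 2 fell in the tLN, Jun (-1.71) and Jund (-6.18), and 1 rose, Batf (1.33), a partner of JUNB and IRF4. Fosl2 had -1.48 and did not pass. Jund, with spleen counts of 1520 against 1112, tLN counts of 8 against 15 and a GC content of 67.1%, had a tissue difference close to that of Junb. Fosl1, Batf3, Atf3 and Maff had too few reads to test.

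Of 9 other immediate-early genes tested, 6 fell in the tLN (22.2% of all genes) and 1 rose (23.3% of all genes), Btg2, an antiproliferative gene (0.93). Srf, the serum response factor gene, was also lower, with spleen counts of 218 against 141 and tLN counts of 0 against 12, and Klf2, a regulator of lymphocyte trafficking, fell by 1.01 on the log2 scale. Klf6 had the lowest p of this list for genotype, with spleen counts of 1056 against 1051 and tLN counts of 579 against 1729 (log2 fold change 0.93 ± 0.26, edgeR adjusted p = 0.465). Nab2, which binds EGR factors and represses their targets, fell by 3.71 in the tLN, while Nab1, its relative, had -0.09. Nab2 had a GC content of 60.1% and Nab1 47.2%.

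The phosphatases related to Dusp2 were compared for genotype because they also act on MAP kinases, though not all on the same ones. Dusp4 had spleen counts of 301 (WT) against 137 and tLN counts of 63 against 10, with a log2 fold change of -1.57 ± 0.58 (unadjusted p = 0.0197, edgeR adjusted p = 0.890). Dusp1 had spleen counts of 448 against 277 and tLN counts of 239 against 83, at -0.94 ± 0.40 (unadjusted p = 0.0387, edgeR adjusted p = 0.890). Dusp6 had -0.61 ± 0.40 and Dusp16 1.56 ± 1.27. Of the 6 relatives 4 had negative values, the median was -0.32, and 0 passed the threshold. In the tLN 2 of the 6 fell, Dusp4 and Dusp5 (named after its values were seen), and 0 rose, with 22.2% of all genes lower and 23.3% higher.

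Of 18 slower genes of the receptor response, 9 rose in the tLN (23.3% of all genes) and 5 fell (22.2% of all genes), with a median log2 fold change of 0.54. By the rule for named genes, the costimulator Icos (43.0% GC) rose by 1.37 and the activation marker Cd83 (51.8% GC) by 1.95. Cd5 (56.0% GC), a receptor that dampens signalling, fell by 0.77 and the NF-kappaB regulator Nfkbid (57.1% GC) fell by 1.58. Of 22 genes of the receptor and its kinases and adaptors, 11 rose in the tLN and 6 fell, against the same shares of all genes. Among them the adaptor Lcp2 (1.57, 46.8% GC) and the phosphatase genes Ptpn22 (1.06, 45.1% GC) and Ptpn6 (0.85, 54.9% GC) rose. The kinase Map2k2 (-2.04, 60.4% GC) fell. The part of GC content in these counts was not tested, and taken in the order of listing, tissue and library kit cannot be told apart. For genotype Ptpn22 had 0.73 ± 0.20 (edgeR adjusted p = 0.455). Of 7 heat shock genes tested, 3 rose in the tLN, including the chaperone Hsp90aa1 (1.00), and 0 fell, against 23.3% and 22.2% of all genes. Dnajb1, Hsph1 and Hspe1 had -0.32, -0.16 and 0.41 and did not pass.

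Reads of a gene that fall outside its listed exons gave a second readout for the members, and their origin was not tested. Tissue and library kit, taken in the order of listing, cannot be told apart in these shares either. In spleen Tregs 20.3% (exact binomial 95% interval 18.2 to 22.5%) of Nr4a1 gene reads in WT and 20.2% (17.5 to 23.1%) in Csnk2b-deficient Tregs lay outside exons. In the tLN these shares were 1.18% (0.030 to 6.38%) of 85 reads and 6.41% (3.12 to 11.5%) of 156 reads. Fos had shares of 14.5% (WT) and 14.7% in spleen libraries against 1.71% and 1.49% in tLN libraries, although its exon reads did not differ in one direction. Nr4a1 and Fos thus had lower shares in both tLN libraries, with intervals that did not reach those of the spleen. Nr4a3 went the other way, with 17.6% (14.4 to 21.3%) and 16.8% (13.2 to 21.0%) in spleen libraries against 37.3% (31.3 to 43.6%) and 47.7% (39.0 to 56.6%) in the tLN. Its reads across an intron-exon border numbered 0 (WT) and 1 in spleen libraries and 0 in both tLN libraries. Over all genes with at least 50 gene reads the median share was 20.6% and 21.6% in spleen libraries against 15.4% and 17.5% in tLN libraries. Reads across an intron-exon border made up 1.34 and 1.36 per 100 gene reads in spleen libraries against 0.707 and 0.689 in tLN libraries. Dusp2 and Egr1 had at most 1.23% of reads outside exons in any library, and between the genotypes of a tissue the intervals overlapped for every member with reads.

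The members did not share 1 profile. Distances of each member's log2 CPM, centred over the 4 libraries, from the mean of the members ran from 0.32 for Fosb to 2.30 for Egr2, 3.87 for Egr3 and 4.06 for Junb. Among 7157 other genes with a mean of at least 20 CPM, the 5 nearest to that mean were Adrbk1, the kinase GRK2 (distance 0.034), Fbxl20 (0.054), Aph1a, a gamma-secretase subunit (0.067), Smurf1, a ubiquitin ligase (0.068), and Tmem87a (0.076). Adrbk1 had 561 and 553 CPM in spleen libraries against 149 and 123 CPM in tLN libraries. The likeness rests on 4 libraries and is a description.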

How the data were processed

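Tregs of 4 libraries (WT and Csnk2b-deficient, spleen and tLN) were analysed. The authors deposited whole-number counts of exon and gene reads per gene, per the file headers. The submitters' processing notes name CASAVA 1.8.2 and mm9, while aligner, annotation and any use of strand were not stated. The deposited tables also list other values, exon length, exons and transcripts, per the file headers. Of 37583 features, 9551 without an exon length were left out.

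Total exon reads went through edgeR 4.0.16 (R 4.3.3) with filterByExpr by genotype, TMM factors, a robust quasi-likelihood fit on tissue and genotype, and Benjamini-Hochberg adjustment over 11113 genes at a threshold of 0.05. The fit left 1 residual degree of freedom (prior degrees of freedom 10.1). Each SE was the log2 fold change divided by the root of F. CPM use the TMM-scaled library size. The pair ratios have exact binomial 95% intervals, and 0 reads were bounded at 3 reads per library. The replicate number marks the tissue, per the labels, so the numbers pair the libraries (correlation of deviations 0.783). Libraries of a pair differed by a chi-square of 7.93 (spleen) and 30.4 (tLN) per degree of freedom. GC content is that of the GENCODE M21 coding transcript nearest in length to the listed exons, matched for 84.8% of tested genes.

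The members and lists were chosen with earlier results of these data known. The rule named all members, up to 4 genes per list by genotype p, and the 5 nearest genes. Alternatives were other scaling (median of ratios, upper quartile), filters, DESeq2 1.42.0, limma-voom (3.58.1), uniquely placed reads, no tissue term and single pairs.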

Additional observations from a re-analysis of the deposited data

Results flagged for a closer look

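For 6 members the genotype ratio pointed in opposite directions in the 2 tissues, each from 1 pair of libraries. Over all genes tested, 29.2% were lower and 27.5% higher in both tissues, and the rest were not of 1 direction in both. This difference was not tested. The log2 ratios of Csnk2b-deficient to WT in spleen and tLN were 0.19 and -0.56 for Egr2, -0.31 and 0.64 for Nr4a1, 0.39 and -0.27 for Nr4a2, 0.07 and -1.35 for Nr4a3, 0.01 and -0.96 for Fos, and -0.22 and 0.26 for Fosb. Nr4a1 was the only member of these whose counting intervals lay off 0 in both tissues, on opposite sides. The tLN to spleen ratio pointed in opposite directions in WT and Csnk2b-deficient Tregs for Egr2 (0.64 and -0.11) and Fos (0.43 and -0.54), also not tested. Of this last pair Fos had intervals that lay off 0 in both genotypes. All these intervals cover counting error only, and the share of all genes with such intervals was not counted.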

How the results depend on the processing

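For genotype, 0 members were called higher or lower in edgeR under each scaling and filter, in DESeq2, in limma-voom and on uniquely placed reads, and the fit without the tissue term, which drops the replicate block, called 0 as well. The sign of Nr4a1 turned from 0.12 to -0.10 with limma-voom and to -0.15 without the block, and that of Fosb from -0.03 to 0.0062 with DESeq2. For tissue, 6 members were called lower in edgeR, 4 with DESeq2, 5 with median-of-ratios size factors or uniquely placed reads, and 6 with the other settings. Fos turned from -0.05 to 0.0195 with limma-voom. Centred on genes of like GC content, a setting chosen after seeing the data, Egr1 and Dusp2 turned to 0.49 and 0.33. The median tissue change of all genes moved by -0.15 with upper-quartile scaling and by -0.25 with no filter. Single pairs gave values from -1.35 to 0.64 for genotype and from -6.32 to 0.64 for tissue. Fosb is below the 5 CPM filter, and with 3 and 4 reads its tLN level is limited by depth. The share of members' reads outside exons, 6.00% to 7.16% per library, was 6.04% to 7.28% on unique reads.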
